A study of Mus musculus with 24 samples.

Results

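Igfbp4 and Drc1 were 2 of 20031 genes named on the arrays. On the loess scaling used here they had the highest rises in T helper cells treated with flavopiridol among 12462 genes bright enough to fit. Flavopiridol is a small-molecule inhibitor of P-TEFb, the kinase complex that releases paused RNA polymerase II into productive elongation. Igfbp4 and Drc1 were chosen by that rise, so their rises over DMSO and the difference between doses are descriptions with no test. Each gene was read by 1 probe, and no further probe of either gene could be matched by accession, symbol or synonym.

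The study used in vitro differentiated Th1 and Th2 cells of female C57BL/6 mice, left unstimulated or reactivated, on 24 two-colour arrays with 1 array per condition. Th1 cells received DMSO, the solvent control, or 500 nM JQ1 (an inhibitor of BET bromodomain proteins) at 6 and 24 hr, 50 nM JQ1 at 6 hr, and 1 or 10 µM flavopiridol at 6 hr. Th2 cells received DMSO, 50 or 500 nM JQ1, or 1 or 10 µM flavopiridol at 6 hr, except that the labels of the Th2 DMSO arrays name 24 hr in one field and 6 hr in another, so their time is unclear. On every array the T helper sample was labelled with Cy3 and RNA of naive CD4+CD62L+CD25-CD44lo T cells from mice of the same sex and strain with Cy5, and dyes were not swapped. In vitro differentiated cells are mixed populations, and in bulk RNA a change in the cells that make up a sample and a change in the RNA per cell cannot be told apart. With 1 array per condition, the combinations of cell type and stimulation stood in for replicates, so p-values measure the spread between such combinations.

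Igfbp4 encodes insulin-like growth factor binding protein 4, a secreted protein that holds IGF ligands away from their receptor, is cut by the protease PAPP-A, and also antagonizes Wnt signalling at its receptors. Drc1 (formerly Ccdc164) encodes a core subunit of the nexin-dynein regulatory complex, which links microtubule doublets and regulates dynein in motile cilia and flagella. T cells build no motile cilium, and multiciliated epithelium and sperm are where Drc1 is best known.

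The promoter windows of both genes, 250 bases before and 50 after the annotated start from RefSeq on GRCm38.p6, are shown because the genes moved together with flavopiridol. Capitals mark the matches found on either strand among the 5 motifs searched, which were TATAAA (the TATA box), GGGCGG (bound by Sp1), CACGTG (the E-box), GTTGCC (part of the X-box read by RFX factors, regulators of cilium genes) and TGTTTAC (bound by forkhead factors).
Igfbp4, chr11:99040994-99041293, plus strand: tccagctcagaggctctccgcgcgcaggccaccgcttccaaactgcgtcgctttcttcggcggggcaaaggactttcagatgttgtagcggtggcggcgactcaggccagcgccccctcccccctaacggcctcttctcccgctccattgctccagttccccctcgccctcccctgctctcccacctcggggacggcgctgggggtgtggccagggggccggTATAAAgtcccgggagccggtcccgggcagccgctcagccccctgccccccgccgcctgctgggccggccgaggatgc
Drc1, chr5:30281143-30281442, plus strand: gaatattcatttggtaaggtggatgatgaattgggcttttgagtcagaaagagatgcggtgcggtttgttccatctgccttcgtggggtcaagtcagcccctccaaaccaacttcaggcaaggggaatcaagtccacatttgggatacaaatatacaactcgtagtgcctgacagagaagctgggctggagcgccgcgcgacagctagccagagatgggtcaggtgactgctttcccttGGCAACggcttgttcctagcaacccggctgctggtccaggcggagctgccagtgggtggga

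The Igfbp4 window held 1 match, the TATA box starting at position -28 from the start, a sequence found in 13.6% of 32851 promoter windows of the same length. The Drc1 window held 1 match, the X-box part on the minus strand, starting at position -11, and this motif was found in 12.5% of windows. Neither window matched the Sp1, E-box or forkhead letters, which 35.7%, 7.15% and 3.65% of windows held. The windows differed in base composition, with 71.3% GC and 27 CpG in Igfbp4 and 54.3% GC and 11 CpG in Drc1, against medians of 52.7% and 7 over all windows. A match in letters is a description and not a site of binding.

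The labels were checked against marker genes. In DMSO arrays Tbx21, which encodes T-bet, lay between 5.41 and 6.35 (log2 ratio of sample over naive reference) in Th1 and between -0.02 and 4.64 in Th2, and Gata3, the Th2 regulator, between -0.52 and 0.55 in Th1 and between 1.95 and 2.64 in Th2. Ifng also separated the cell types (7.08 to 8.59 in Th1, 0.65 to 6.20 in Th2), while Il4 overlapped (0.12 to 4.50 in Th1, 3.52 to 8.02 in Th2). In Cy3, 48.8% to 52.0% of probes were well above background on DMSO arrays and 35.5% to 41.5% on flavopiridol arrays, and in Cy5 48.1% to 53.8% over all arrays. The arrays came from 3 slides, with flavopiridol and its DMSO controls always on different slides, so that drug and slide cannot be told apart in that comparison.

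Without drug, Igfbp4 was lower in T helper cells than in naive cells on every array. Its log2 ratio was -1.77 in unstimulated and -2.33 in reactivated Th1 cells at 6 hr, -0.96 and -2.08 at 24 hr, and -1.93 and -2.27 in Th2 cells. The unstimulated Th1 array at 24 hr was the highest and lay closest to the naive level. With flavopiridol, Igfbp4 was higher than in naive cells on every array. In Th1 cells the ratio was 1.94 unstimulated and 1.74 reactivated at 1 µM, and 1.96 and 1.89 at 10 µM. In Th2 cells it was 2.66 and 2.33 at 1 µM, and 2.67 and 2.38 at 10 µM. The 8 flavopiridol arrays (1.74 to 2.67) and the 6 DMSO arrays (-2.33 to -0.96) did not overlap. The gene was chosen by this rise, which makes a lack of overlap likely, and its share over all genes was not counted.

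Drc1 followed the same course from a more variable base. Its log2 ratio without drug was -2.03 in unstimulated and -1.26 in reactivated Th1 cells at 6 hr, 1.02 and -0.69 at 24 hr, and -0.85 and -1.08 in Th2 cells. One DMSO array, unstimulated Th1 at 24 hr, was thus above the naive reference and the other 5 were below it. With flavopiridol the ratio was 2.68 and 2.37 at 1 µM and 2.52 and 2.37 at 10 µM in Th1 cells, and 3.62 and 3.23 at 1 µM and 3.58 and 3.35 at 10 µM in Th2 cells. The flavopiridol arrays (2.37 to 3.62) lay above the DMSO arrays (-2.03 to 1.02) with no overlap, which the choice by the rise again makes likely. On this loess scaling the Th2 flavopiridol arrays lay above the Th1 flavopiridol arrays. Centred on the array median, the Th1 (0.81 to 1.42) and Th2 (1.20 to 1.64) values of Drc1 overlapped.

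**Figure D1:**
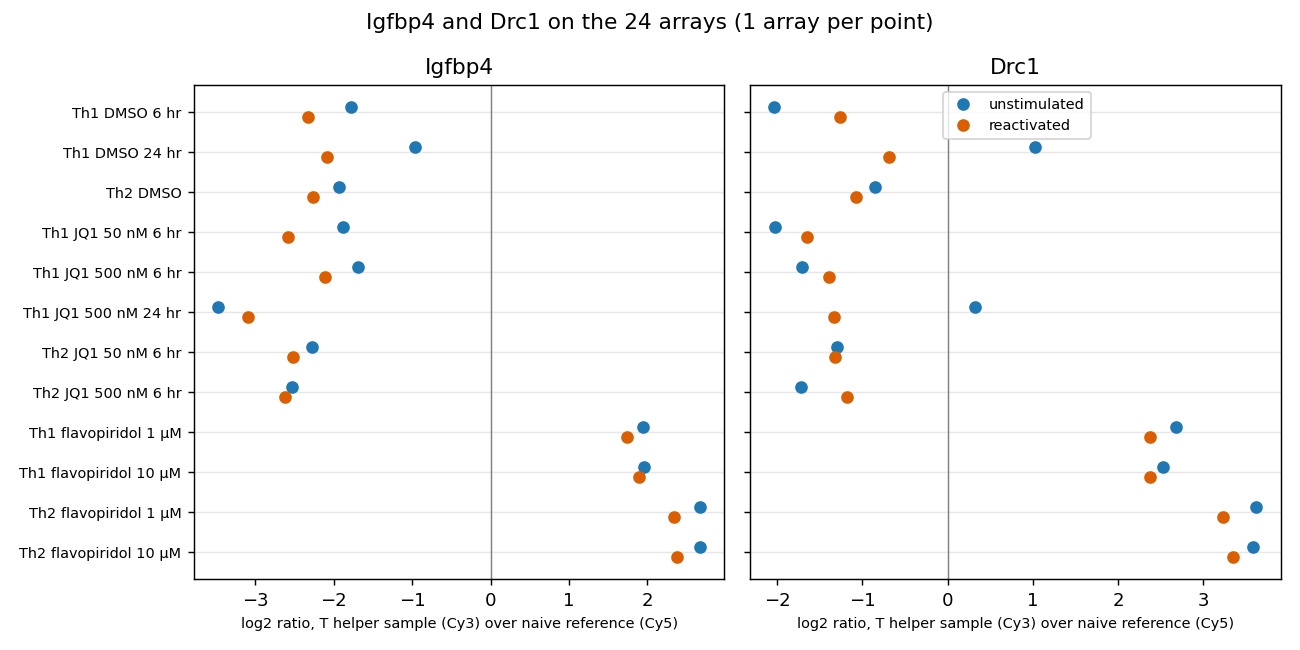
Log2 ratio of the T helper sample over the naive reference (x axis) for Igfbp4 (left) and Drc1 (right) in each of 12 conditions (y axis), 1 point per array, blue unstimulated and orange reactivated. The 8 flavopiridol arrays sit to the right of 0 for both genes, and of the other arrays only unstimulated Th1 cells at 24 hr, with DMSO or JQ1, do so for Drc1.

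At 10 µM, the flavopiridol rise over DMSO was 4.30 ± 0.43 (log2, SD, n = 4 combinations) for Igfbp4, a 19.7-fold change, and 4.26 ± 0.42 for Drc1, 19.2-fold. The controls were the 6 hr DMSO arrays in Th1 cells and those of unclear time in Th2 cells. In Th1 cells alone, the rise over the 24 hr DMSO arrays was 3.44 for Igfbp4 and 2.28 for Drc1, against 3.98 and 4.09 over the 6 hr arrays, a choice of controls made after seeing the data. At 1 µM it was 4.25 ± 0.43 and 4.28 ± 0.46. All 4 combinations of cell type and stimulation rose at each dose, by 3.71 to 4.65 for Igfbp4 and by 3.63 to 4.72 for Drc1. Over the 12462 genes in that fit 15.4% were called higher at 10 µM by limma, and the members ranked 1 and 2 because they were selected on this contrast. The next genes were Cryab, a small heat shock protein gene, at 3.65, and Rnu3b1, a U3 small nucleolar RNA gene, at 3.57. On that scale the median of all genes tested was -0.22.

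The size of the rise depended on how the arrays were scaled. With each array centred on its 10 spike-in probes, added to both channels with the labelling, the 10 µM rise was 2.61 for Igfbp4 and 2.34 for Drc1, and the median of all genes was -1.65. Relative to that median, the rises were 4.26 and 3.99, against 4.53 and 4.49 under the loess scaling used here. Centred on the array median of log ratios, the rises themselves were 3.20 and 2.93. Under both of these centrings Igfbp4 ranked 1 and Drc1 ranked 3 of 12441 genes by the 10 µM rise. Under spike-in centring the lowest Igfbp4 ratio with flavopiridol was -0.36, still above the highest DMSO ratio of -1.92. For Drc1 the lowest flavopiridol ratio was then 0.08 and the highest DMSO ratio 0.06. Spike-in centring aligned the arrays with each other and kept any offset between the dyes that they share. Its 0 is therefore not the naive level, and only differences between arrays are read from it. Statements that the genes stood above the naive level were made on the loess scaling.

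The rise lay in the sample channel. The Cy3 spot of Igfbp4 read 228.5 to 548.5 intensity units on DMSO arrays and 2466 to 4130 on flavopiridol arrays, before any normalization. The Cy3 spot of Drc1 read 97.5 to 687 and 1112.5 to 1973. Both spots were well above background in both channels on all 24 arrays, and local background was 16 to 26 units in Cy3. The Cy5 spot of Igfbp4, which holds naive RNA on every array, read 2101 to 2735.5 with DMSO and 2361 to 3245 with flavopiridol, and that of Drc1 827.5 to 945 and 841 to 1055. These ranges overlapped.

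After normalization, the Cy3 level alone rose by 4.08 to 5.23 (log2) for Igfbp4 and by 3.72 to 4.79 for Drc1 over the 4 combinations and both doses. The Cy5 level of Igfbp4 differed between the same arrays by 0.04 to 0.63, always higher on the flavopiridol array, and that of Drc1 by -0.07 to 0.31. For comparison, Cy5 differences between any 2 arrays had a median SD of 0.18 over 11318 genes. The ratio therefore gave a smaller rise than Cy3 alone, 4.30 against 4.66 for Igfbp4 and 4.26 against 4.40 for Drc1 at 10 µM.

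**Figure D2:**
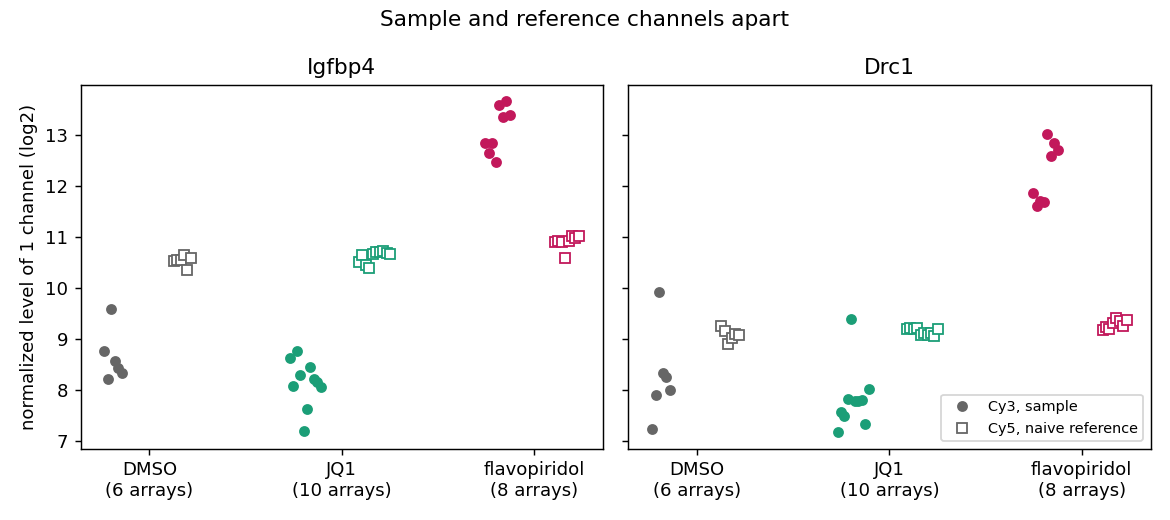
Normalized log2 level (y axis) of the sample channel (filled circles) and of the naive reference channel (open squares) for Igfbp4 and Drc1, by drug, 1 point per array and channel. The sample channel of Igfbp4 reaches 12.48 to 13.66 with flavopiridol against 8.22 to 9.59 with DMSO, while the reference channel stays between 10.36 and 11.02.

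The 2 doses of flavopiridol gave close values for either gene. The 10 µM minus 1 µM difference of Igfbp4 was 0.02 in unstimulated and 0.15 in reactivated Th1 cells, and 0.01 and 0.05 in Th2 cells, a mean of 0.06 ± 0.07 (SD, n = 4). That of Drc1 lay between -0.16 and 0.12 with a mean of -0.02 ± 0.12. On the loess scaling these differences were no larger than the spread of the reference channel between arrays, while under spike-in centring the means were -0.22 for Igfbp4 and -0.28 for Drc1. No test was made since the 10 µM arrays chose the genes.

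Differences of the response between cell types and states were fitted as interactions at 10 µM, on the arrays that chose the genes but not on the mean rise that chose them. The Igfbp4 rise was 3.73 and 4.22 in unstimulated and reactivated Th1 cells and 4.60 and 4.65 in Th2 cells. The Th1 minus Th2 difference of the rises was -0.65 (95% confidence interval -1.21 to -0.09, adjusted p = 0.324, limma), where 0.016% of genes were called. Under spike-in centring that difference was 0.35. The Drc1 rise was 4.55 and 3.63 in Th1 cells and 4.44 and 4.43 in Th2 cells, and the Th1 minus Th2 difference was -0.34 (-1.27 to 0.59, adjusted p = 0.796, limma). The Drc1 difference turned to 0.60 under spike-in centring, 0.22 under median centring and 0.16 without the reactivated Th1 DMSO array. The rise in reactivated minus that in unstimulated cells was 0.27 for Igfbp4 (-0.58 to 1.11, adjusted p = 0.689) and -0.46 for Drc1 (-1.17 to 0.25, adjusted p = 0.356) by limma, where 15.8% of genes were called. None of these 4 differences passed the threshold, and nothing further is drawn from them. Th1 and Th2 flavopiridol arrays lay on different slides, so that cell type and slide cannot be told apart in them.

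JQ1, which displaces BET proteins from acetylated chromatin, gave neither gene a rise of this kind. The Igfbp4 ratio with 50 nM JQ1 was -1.88 and -2.58 in unstimulated and reactivated Th1 cells and -2.27 and -2.51 in Th2 cells. With 500 nM at 6 hr it was -1.69 and -2.11 in Th1 cells and -2.53 and -2.62 in Th2 cells. All of these lay below the naive level, and those with 500 nM differed from their DMSO control by -0.60 to 0.22. Th1 JQ1 arrays at 6 hr shared a slide with their controls, with differences of 0.09 and 0.22 at 500 nM. Th2 JQ1 arrays did not, with differences of -0.60 and -0.35, so that drug and slide cannot be told apart in Th2 cells. The fitted difference of 500 nM JQ1 from DMSO was -0.16 for Igfbp4 (95% confidence interval -0.44 to 0.12, adjusted p = 0.328, limma, 12 arrays), in a comparison where 47.6% of 12923 genes were called.

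The Drc1 ratio with 50 nM JQ1 was -2.03 and -1.65 in Th1 cells and -1.29 and -1.32 in Th2 cells, and with 500 nM at 6 hr -1.71 and -1.39 in Th1 cells and -1.71 and -1.18 in Th2 cells. Unstimulated Th2 cells showed the largest difference from DMSO, -0.86, between arrays on different slides. The fitted difference with 500 nM was -0.19 (-0.53 to 0.14, adjusted p = 0.319, limma). JQ1 and flavopiridol were compared with the same DMSO arrays, and those arrays also chose the genes. Scaling changed this call for both genes: centred on the array median, the difference was -0.49 for Igfbp4 (adjusted p = 0.00408) and -0.48 for Drc1 (adjusted p = 0.0154) in limma, with the median of all genes at -0.30. Without the unstimulated Th2 array of 500 nM JQ1 the loess differences were -0.032 for Igfbp4 and -0.00012 for Drc1.

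The difference between 500 and 50 nM JQ1 was taken from arrays that did not choose the genes, while its error was estimated in the fit that also holds the 4 DMSO arrays. It was 0.08 for Igfbp4 (-0.21 to 0.36, adjusted p = 0.697) and 0.07 for Drc1 (-0.26 to 0.41, adjusted p = 0.755) by limma, where 31.3% of genes were called. Neither sign held under centring on spike-ins.

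**Figure D3:**
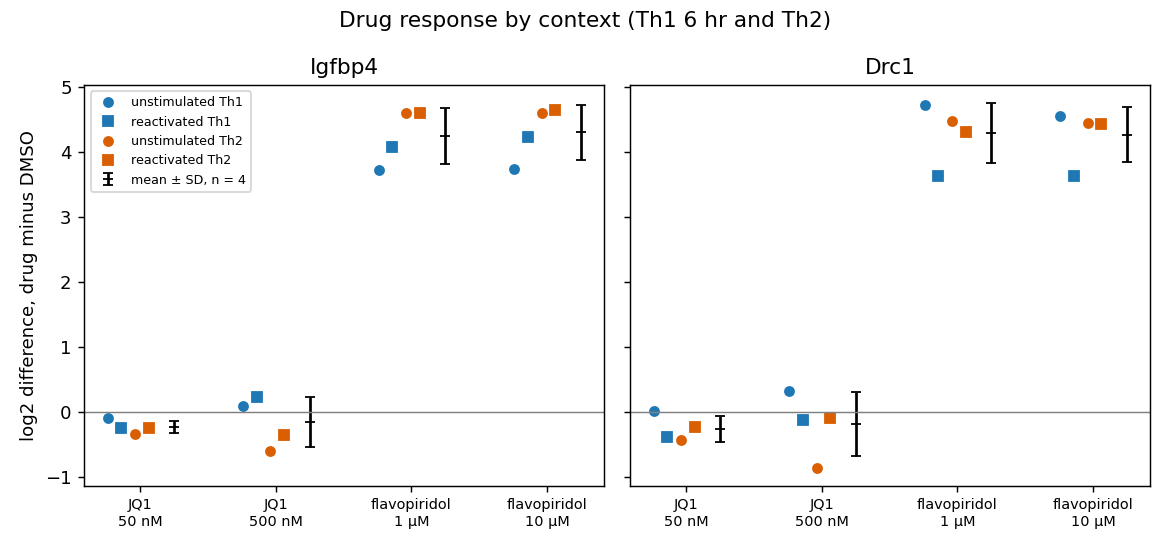
Log2 difference from the DMSO array of the same cell type and stimulation (y axis) for 2 doses each of JQ1 and flavopiridol (x axis), with blue for Th1 at 6 hr, orange for Th2, circles for unstimulated and squares for reactivated cells, and the mean ± SD of the 4 in black. JQ1 differences lie between -0.86 and 0.32 and flavopiridol differences between 3.63 and 4.72.

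The longer JQ1 exposure, present in Th1 cells only, gave the lowest Igfbp4 values of the series. At 24 hr the ratio was -3.47 in unstimulated and -3.09 in reactivated cells with 500 nM JQ1, against -0.96 and -2.08 with DMSO, differences of -2.51 and -1.01. All 4 arrays lay on 1 slide. The Cy3 spots read 72 and 95 units with JQ1 against 548.5 and 320 with DMSO, still well above background. The difference in unstimulated cells ranked 18 from the lowest of 8836 genes above background on every array, and that in reactivated cells ranked 362. Drc1 differed less, at 0.32 and -1.33 against 1.02 and -0.69, differences of -0.71 and -0.64. No separate fit was made of these 4 arrays. The JQ1 difference at 24 hr minus that at 6 hr, a limma contrast over 8 Th1 arrays chosen after these values were seen, was -1.92 for Igfbp4 (unadjusted p = 0.00691, adjusted p = 0.947) and -0.77 for Drc1 (unadjusted p = 0.0158, adjusted p = 0.947), in a contrast where 0 of 12544 genes passed. Each JQ1 difference in it was taken within 1 slide. At 24 hr with JQ1, Igfbp4 was thus further below the naive level than on any other array, and Drc1 in unstimulated cells was above it.

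**Figure D4:**
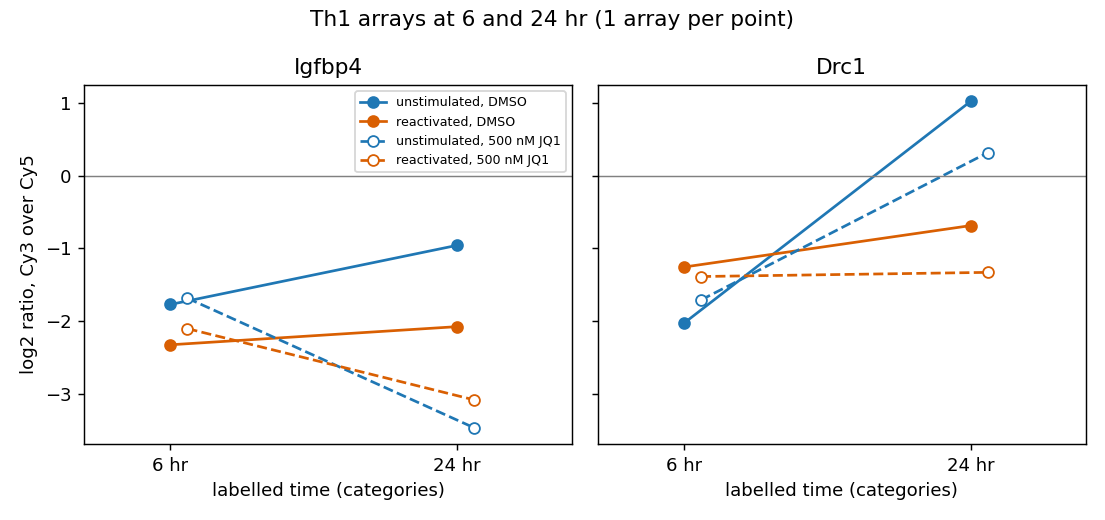
Log2 ratio over the naive reference (y axis) on Th1 arrays at the 2 labelled times (x axis, as categories) for Igfbp4 (left) and Drc1 (right), with blue for unstimulated and orange for reactivated cells, and filled points with solid lines for DMSO and open points with dashed lines for 500 nM JQ1. Igfbp4 with JQ1 falls to -3.47 and -3.09 at 24 hr, and Drc1 in unstimulated cells stands at 1.02 with DMSO and 0.32 with JQ1.

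Reactivated and unstimulated cells were compared within each drug condition. Without drug, reactivated minus unstimulated was -0.55 at 6 hr and -1.12 at 24 hr in Th1 cells and -0.34 in Th2 cells for Igfbp4, a fitted change of -0.67 (95% confidence interval -1.10 to -0.24, adjusted p = 0.0198, limma, 3 pairs), where 51% of 12543 genes were called. Igfbp4 fell in 3 of 3 pairs. The call was lost with Cy3 alone (-0.56, adjusted p = 0.0618) by limma. It was also lost in 4 of 6 fits without 1 array, those without either Th1 24 hr array (-0.45, adjusted p = 0.106 and 0.108) or either Th1 6 hr array (-0.73, adjusted p = 0.0539 and 0.0552). Drc1 gave 0.77, -1.71 and -0.23 in the same pairs, with opposite signs at the 2 Th1 times, and a fitted change of -0.39 (-1.41 to 0.63, adjusted p = 0.488, limma); without the Th1 24 hr pair it was 0.27.

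Under JQ1, the fitted reactivation difference was -0.21 for Igfbp4 (-0.56 to 0.13, adjusted p = 0.254) and -0.09 for Drc1 (-0.78 to 0.60, adjusted p = 0.817) over 5 pairs in limma, where 57.8% of genes were called. Leaving out the 24 hr JQ1 pair took Igfbp4 to -0.36 (adjusted p = 0.0449) and Drc1 to 0.30. Under flavopiridol, Igfbp4 differed by -0.06 to -0.33 and Drc1 by -0.15 to -0.39, lower in the reactivated member of all 4 pairs for each gene. The fitted differences were -0.22 (-0.40 to -0.05, adjusted p = 0.162) and -0.27 (-0.44 to -0.10, adjusted p = 0.132) by limma, in a comparison where 0.128% of 10942 genes were called. These are the arrays on which the genes were chosen, though not the contrast, and neither difference passed after adjustment over all genes.

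Genes that act with Igfbp4 and Drc1 were counted in 5 lists on the loess scaling. Under spike-in centring, where Igfbp4 and Drc1 stayed above DMSO, the naive T cell gene Ly6c1 (0.62) was the 1 tested gene of these lists above 0 with 10 µM flavopiridol. In the IGF axis, of 19 genes besides Igfbp4 (ligands, receptors, binding proteins, receptor substrates and the proteases and stanniocalcins that act on them), 8 were measured well enough to be tested, and with 10 µM flavopiridol 0 rose (0 at an unadjusted p below 0.05), 2 fell and 6 did not pass (limma, median -0.20 against -0.22 over all genes, with 15.4% of all genes called higher and 33.5% lower). The ligand gene Igf1 had the highest difference, 0.02, and the receptor substrate gene Irs2 the lowest, -1.80 (adjusted p = 0.034). The receptor gene Igf1r also fell, at -0.93 (adjusted p = 0.0458). At 1 µM neither passed by limma, with Irs2 at -1.05 (adjusted p = 0.168) and Igf1r at -0.74 (adjusted p = 0.0909). Among the binding proteins, Igfbp6 differed by -0.03 (adjusted p = 0.861), and the spots of Igfbp3, Igfbp7 and Igfbpl1 were well above background in Cy3 on 0 arrays. Pappa, which encodes the protease for Igfbp4, was above background in Cy3 on 0 of 8 flavopiridol arrays and 3 of 6 DMSO arrays. With 500 nM JQ1, 2 of 10 tested genes rose, Irs2 by 0.76 and the scavenger receptor gene Igf2r by 0.22 (0.14 and -0.39 under spike-in centring), 0 fell (1 at an unadjusted p below 0.05) and 8 did not pass by limma, where 17.7% of all genes were called higher and 29.9% lower.

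Among the partners of Drc1 in the nexin-dynein regulatory complex, of 11 other subunits 5 were tested, and with 10 µM flavopiridol 1 rose, Iqcd by 0.46 (adjusted p = 0.0403; -1.41 under spike-in centring), 1 fell, Gas8 at -0.83 (adjusted p = 0.00231), and 3 did not pass by limma, with a median of 0.16 against -0.22 over all genes, of which 15.4% were called higher and 33.5% lower. At 1 µM Iqcd did not pass (0.36, adjusted p = 0.0885, limma). The spots of Drc3, Drc7, Iqca and Ccdc153 were well above background in Cy3 on 0 of the 24 arrays. With 500 nM JQ1, 0 of 5 rose (0 at an unadjusted p below 0.05, limma) and 2 fell, with Efcab2 lowest at -0.65 and Iqcd highest at 0.05, where 17.7% of all genes were called higher and 29.9% lower.

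Of 18 other motile cilium genes on the array, 9 were tested with flavopiridol, of which 2 rose, 1 fell and 6 did not pass, with a median of 0.00 against -0.22 over all genes (15.4% higher, 33.5% lower). Dnaic1, a dynein intermediate chain gene, rose by 0.70 (adjusted p = 0.00095) and Hydin, a central-apparatus gene, by 0.57 (-0.86 and -0.65 under spike-in centring), while Mcidas, a regulator of multiciliated cells, fell by 2.17 (adjusted p = 0.000615) in limma. Foxj1, the main transcription factor for motile cilia, differed by -0.50 (adjusted p = 0.0785). Under JQ1, 0 of 11 rose (2 at an unadjusted p below 0.05, limma) and 3 fell, with Rsph1 lowest at -0.78 and Rfx3, an RFX factor gene, highest at 0.31 (17.7% of all genes higher, 29.9% lower).

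Since Igfbp4 and Drc1 moved from below to above the naive level on the loess scaling, genes that mark naive T cells were set beside them. Of 20 such genes, 5 were called higher with 10 µM flavopiridol, 8 were called lower and 7 did not pass. Their median was -0.51, against -0.22 over all genes, of which 15.4% were called higher and 33.5% lower. Among the 5 called higher, Ccr9 (1.17) was well above background in Cy3 on only 2 flavopiridol arrays, against 5 DMSO arrays. Nothing is read from the call of Ccr9. Dapl1 rose most, by 1.42 (adjusted p = 0.000935; -0.18 under spike-in centring), to a mean ratio of -3.94, still below naive cells. Ccr7, the lymph node homing receptor, fell most, at -4.21 (adjusted p = 0.00201, limma). With 500 nM JQ1 3 rose and 9 fell, from Il7r at -1.85 to Klf2 at 1.49, against 17.7% and 29.9% of all genes.

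Igfbp4 also antagonizes Wnt signalling, and 5 of 12 Wnt co-receptor and antagonist genes were tested. With flavopiridol 1 rose, the co-receptor Lrp5 by 1.03 (adjusted p = 0.000987; -0.90 under spike-in centring), 3 were called lower, with Lrp6 lowest at -0.81 (adjusted p = 0.00907), and 1 did not pass, by limma, where 15.4% of all genes were called higher and 33.5% lower. At 1 µM Lrp6 did not pass (-0.15, adjusted p = 0.548, limma). The other 2 called lower at 10 µM, Fzd3 and Fzd7, were well above background in Cy3 on 0 of 8 flavopiridol arrays and 4 of 6 DMSO arrays. They passed the filter through arrays without flavopiridol, and nothing is read from their calls. With JQ1, where these shares were 17.7% and 29.9%, 1 rose, the receptor gene Fzd3 by 0.78, and 0 fell (0 at an unadjusted p below 0.05, limma), with Lrp5 the lowest at 0.14 (-0.47 under spike-in centring).

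**Figure D5:**
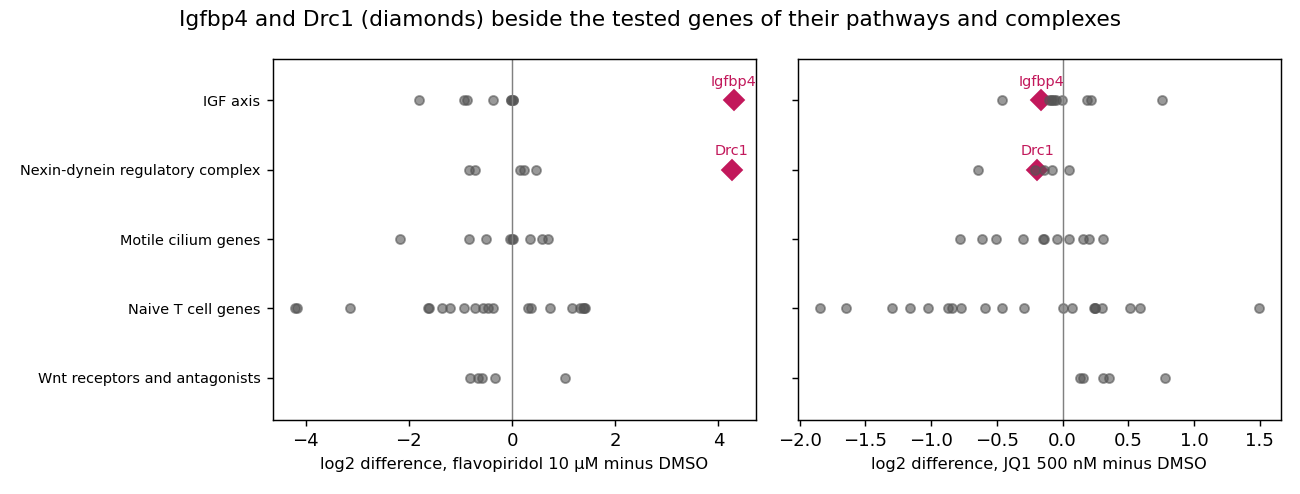
Log2 difference from DMSO (x axis) with 10 µM flavopiridol (left) and 500 nM JQ1 (right) for each tested gene of 5 lists (y axis), grey circles, with Igfbp4 and Drc1 as diamonds. No other listed gene exceeds 1.42 with flavopiridol on this loess scaling (0.62 under spike-in centring), and with JQ1 both members lie at -0.16 and -0.19 among the rest.

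Markers of other cell types were measured on the same arrays, and their part in the result was not tested. Of the 5 multiciliated epithelium markers, Krt8 and Dnah5 were well above background in Cy3 on 0 arrays, and the summed Cy3 level of the list (log2) was 8.93 to 10.1 with DMSO and 8.77 to 9.10 with flavopiridol. Of 5 stromal markers, Dcn and Pdgfrb were well above background on 0 arrays, and the sum was 8.495 to 8.62 against 8.47 to 8.84. The sum of 4 B cell markers was 10.1 to 12.2 with DMSO and 8.81 to 10.5 with flavopiridol, that of 3 myeloid markers 13.5 to 14.2 and 12.1 to 13.7, and that of 2 NK cell markers 7.01 to 7.15 and 6.99 to 7.37. Within the myeloid list Csf1r differed by 2.02 with 10 µM flavopiridol (adjusted p = 6.05e-05) and Itgam by -2.21 (adjusted p = 0.000411) on the loess scaling by limma (0.025 and -3.30 under spike-in centring), and Lyz2 was well above background in Cy3 on 0 arrays. The 2 CD8 genes summed to 7.45 to 8.86 with DMSO and 8.10 to 9.34 with flavopiridol. On the loess scaling Cd8b1 was higher with 10 µM flavopiridol by 1.11 (adjusted p = 0.00039) and with 1 µM by 1.08 (adjusted p = 0.000345), and Cd8a differed by 0.49 (adjusted p = 0.104) and 0.66 (adjusted p = 0.0394) in limma. Under spike-in centring the differences at 10 µM were -0.59 and -0.35.

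The neighbours of the members on the chromosome showed no rise of that size. Igfbp4 lies on chromosome 11 between Top2a, the DNA topoisomerase II alpha gene, and Tns4 among protein-coding genes of RefSeq. With 10 µM flavopiridol Top2a differed by -1.67, Tns4 was well above background in Cy3 on 0 arrays, and Ccr7, the gene after Tns4, differed by -4.21. Drc1 lies on chromosome 5 between Selenoi, an ethanolamine phosphotransferase gene, at -0.32, and Otof, the otoferlin gene, at 0.11. Selenoi and Otof had mean log2 ratios of -0.44 to -0.16 with DMSO and with flavopiridol.

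Across arrays, Igfbp4 and Drc1 were correlated at r = 0.93 (Spearman rho = 0.67, 24 arrays), but at r = 0.09 (rho = -0.10) over the 16 arrays without flavopiridol and r = 0.98 (rho = 0.93) over the 8 arrays with it. The arrays share 1 reference RNA and fall into groups by drug, so these values are descriptions. With flavopiridol, both genes were higher on every Th2 array than on any Th1 array in the loess ratio, but not with median centring, where Igfbp4 was 0.54 to 0.99 in Th1 and 0.47 to 0.88 in Th2. The genes most like Igfbp4 in pattern, among 12373 genes above background on at least 8 arrays, were Slc25a39 (r = 0.99), Glis1 (0.98), Ogfod3 (0.98), Syce2 (0.98) and Mapk13 (0.98). Their differences with 10 µM flavopiridol were 1.61 to 2.30 on the loess scaling, with Glis1 at -0.36 under spike-in centring. The genes most like Drc1 were Ggt1 (0.97), Ost4 (0.97), Teddm2 (0.96), Slc39a11 (0.96) and Micos13 (0.96), with differences of 1.22 to 2.04, and Ggt1 at -0.20 under spike-in centring.

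A crossing of the naive level by more than 0.5 (log2) in both directions was uncommon. Of 8634 genes above background in both channels on every array, 984 were below -0.5 on all 4 DMSO arrays used as flavopiridol controls, 1372 were above 0.5 on all 8 flavopiridol arrays, and 5 were both. Beside Igfbp4 and Drc1 these were Ppm1j, a protein phosphatase gene, Prps2, a phosphoribosyl pyrophosphate synthetase gene, and Fam178b, which rose by 2.36, 1.82 and 1.43. This limit and these 3 genes were chosen after their values were seen, and the count holds for the loess scaling.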

How the data were processed

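Cy3 and Cy5 spot intensity values of 24 Agilent two-colour arrays were used as deposited, per the file headers from Feature Extraction 10.7.1.1 on an mm9 grid of 62976 spots. The authors' deposited table of log2 values for 34710 probes, whose exact scaling is not given in the sources used here, served as an alternative. Median signals were corrected with normexp (offset 50) and normalized within arrays by loess (limma 3.58.1, R 4.3.3), with Aquantile between arrays for single channels. The scanner software's own log10 ratio, deposited in the same files, was a further alternative. Ratios were turned to Cy3 over Cy5. Of 55681 probes, 26448 were named through RefSeq tables of GRCm38.p6. Each gene was read by its brightest probe and tested if at least 3 arrays of its fit had a Cy3 signal well above background. Tests were limma fits over all genes with combination or pair as a block, Benjamini-Hochberg adjusted, called below 0.05, and checked on simulated data. The number of arrays, 1 per condition, limits the precision. The members, gene lists and motifs were chosen with earlier results of these data known. The named genes were the members, the highest and lowest of each list and the 5 most alike, with others named as chosen after their values were seen (next-ranked genes, chromosomal neighbours and listed genes between the extremes). No per-sample column was left unmapped. Alternatives were other scalings, Cy3 alone and all probes. Tested results were also refitted with no filter, no block, slide as a block and without each array. Th1 arrays alone with 6 or 24 hr DMSO controls were added after the data were seen.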

Additional observations from a re-analysis of the deposited data

Results flagged for a closer look

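The reactivation effect on Drc1 in Th1 cells went in opposite directions at the 2 labelled times. At 6 hr it was 0.77 (log2) with DMSO, 0.38 with 50 nM JQ1 and 0.32 with 500 nM JQ1, and at 24 hr it was -1.71 with DMSO and -1.65 with 500 nM JQ1. A limma contrast of the 8 DMSO and 500 nM JQ1 arrays, chosen after these values were seen, gave a difference of -2.23 between the times (SE 0.23, unadjusted p = 7.16e-05, adjusted p = 0.312), in a contrast where 0 of 12544 genes passed. Each reactivation difference was taken within 1 slide. In unstimulated Th1 cells with DMSO, Drc1 was higher at 24 than at 6 hr by 3.06, the largest such difference of 8836 genes above background on every array. These 2 arrays lay on different slides, so time and slide cannot be told apart between them.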

How the results depend on the processing

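The 22 results were recomputed under 326 alternatives, of which 266 kept direction and side of the threshold where a test was made and otherwise moved by less than the spread between combinations. The flavopiridol rise stayed positive in every alternative run for it, which were other scalings, Cy3 alone, the mean over probes and Th1 arrays alone. Leaving out arrays, slide as a block, no block and no filter were not run for the rise. Centring on spike-ins gave 2.61 (10 µM) and 2.83 (1 µM) for Igfbp4 and 2.34 and 2.62 for Drc1, the array median 3.20 and 3.33, and 2.93 and 3.13, and the scanner software ratio 4.79 and 4.76, and 5.07 and 5.11. With Th1 arrays alone and 24 hr DMSO as control, chosen after seeing the data, they were 3.44 and 3.36, and 2.28 and 2.36. The 10 against 1 µM difference was -0.22 (spike-ins), -0.13 (median) and -0.015 (Cy3 alone) for Igfbp4 and -0.28 and -0.19 (spike-ins, median) and 0.016 (authors' table) for Drc1, with 4 turns of sign among these untested values.

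Centring on spike-ins and on the median brought 500 nM JQ1 against DMSO past the threshold, at -0.75 and -0.49 for Igfbp4 and -0.74 and -0.48 for Drc1, and the median did so for Igfbp4 reactivation under JQ1, at -0.46. The drug-free Igfbp4 reactivation call was lost with the authors' table (-0.57), spike-ins (-0.43), Cy3 alone (-0.56), no pair block (-0.67) and the software ratio (-0.68). The 24 hr JQ1 change of Drc1 was -0.59 (authors' table), -0.94 (spike-ins), -0.92 (median), -0.54 (Cy3 alone) and -0.81 (software). The cause was not tested.

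For tested results signs turned in 18 alternatives, of which 0 passed the threshold by limma. These were Th1 minus Th2 with spike-ins (0.35 for Igfbp4, 0.60 for Drc1) and the median (0.22 for Drc1), 500 against 50 nM JQ1 with spike-ins (-0.51, -0.47), the median (-0.18, -0.14), and for Igfbp4 the authors' table (-0.041) and Cy3 alone (-0.019), and Drc1 reactivation under JQ1 with the software ratio (0.013). Leaving out 1 array each gave, for Igfbp4, -0.84 to -0.45 for drug-free reactivation, -0.36 to -0.091 for reactivation under JQ1, -0.055 to 0.20 for 500 against 50 nM JQ1, -0.17 to 0.71 for the flavopiridol effect by state and -0.29 to -0.032 for 500 nM JQ1 against DMSO. For Drc1 these were -0.97 to 0.27, -0.24 to 0.30, -0.054 to 0.27, -0.83 to -0.094 and -0.32 to -0.00012, with -0.84 to 0.16 for Th1 minus Th2. No paired analysis by replicate number was possible because each condition had 1 array. The pairs blocked in the fits are the unstimulated and reactivated arrays of 1 condition. Slide as a random block left pair fits as they were, and with 1 probe per gene the mean over probes was the same value.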
